A study of Mus musculus with 6 samples.

Results

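Collagens are the main structural proteins of the extracellular matrix, and 44 of the 22063 genes in the deposited table carried a symbol of the form used for collagen chains. All 44 were taken, whatever they did, and were sorted by the kind of assembly their protein forms into 11 fibrillar, 6 basement membrane, 6 beaded filament, 9 FACIT, 2 multiplexin, 4 transmembrane, 3 short-chain network and 3 other chains. Transcripts were measured by RNA sequencing of heart muscle cells from wild-type (WT) mice. One group of libraries came from mice injected daily with α-ketoglutarate (AKG, a metabolite of the citric acid cycle) for 2 weeks, at a daily dose of 300 mg per kg of body weight, and the other from Control mice injected with phosphate-buffered saline (PBS) over the same time. Both groups were wild type and were described as 21 days old (P21), cells were freed by Langendorff perfusion of the heart with no further sort named, and each group held 3 libraries. The labels do not tell whether day 21 was the start or the end of the injections, nor whether 1 mouse or a pool made a library, so p-values measure only the spread between these libraries.

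A collagen molecule is a triple helix of 3 chains, made of repeats of glycine, proline and hydroxyproline. Fibrillar collagens (types I, III and V in the heart) form the cables that hold the muscle together, type IV forms the sheet-like network of the basement membrane around each heart muscle cell and capillary, type VI forms beaded filaments between both, and FACIT collagens sit on the surface of fibrils. In the heart the fibrillar chains are made mostly by fibroblasts, and type IV chains also by endothelial and mural cells. Prolyl and lysyl hydroxylation of the chains in the endoplasmic reticulum is carried out by enzymes that use α-ketoglutarate as a co-substrate.

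The libraries held 14402875 to 17797348 counts, and 3 counts, taken here as the floor of detection, stood for 0.166 to 0.221 CPM (counts scaled to the library total). CPM values carry the TMM scaling of edgeR, a trimmed mean of log ratios, so that the bulk of genes is level between libraries. With the total count as the scaling, the median log2 fold change of all 13117 tested genes was 0.45 instead of 0.00, and every change below is relative to the bulk of genes. The share of counts from mitochondrially encoded genes was 25.7 to 31.4% in AKG libraries and 38.3 to 43.2% in Control libraries. The 13 heart muscle genes of the labelled cell type summed to 37564 to 40695 CPM in AKG libraries and to 72533 to 78236 CPM in Control libraries. The libraries AKG 1 and AKG 3 stood apart by 5 atrial transcripts, which summed to 359 CPM in AKG 1, 7.58 CPM in AKG 2 and 220 CPM in AKG 3, against 6.40 to 12 CPM in Control libraries. Where a call depends on this, the value of AKG 2 alone against the 3 Control libraries is given. In that fit the lone AKG library is assumed to vary as the Control libraries do, since its spread cannot be measured.

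Markers of the cells that make collagen were present in every library. The 20 fibroblast markers, chosen without collagens, summed to 1490 to 1747 CPM in AKG libraries and to 2074 to 2325 CPM in Control libraries, and of 19 tested, 2 were higher and 13 lower in AKG. With total counts as the scaling, 4 of those 19 were higher and 5 lower. With the TMM scaling the 2 higher markers were Pdgfra at 0.49 and Tcf21 at 0.54. Of the 13 lower, the 4 with the smallest p were Pi16 at -1.83, Mfap5 at -1.49, Serpinf1 at -1.56 and Pcolce at -0.81. The 12 markers of activated fibroblasts summed to 1077.5 to 1538 CPM in AKG libraries and to 1178 to 1494 CPM in Control libraries. Of these, also chosen without collagens, 6 were higher and 4 lower, and 6 and 3 with total counts. Of 8 tested epicardial and mesothelial markers, 3 were higher and 0 lower, and 6 and 0 with total counts. The 18 endothelial markers summed to 2867 to 3564 CPM in AKG libraries and to 3242 to 3556 CPM in Control libraries, with 4 higher and 4 lower. The 15 pericyte and smooth muscle markers summed to 2402 to 2628 CPM in AKG libraries and to 3530 to 3689 CPM in Control libraries, with 1 higher and 10 lower. The 14 macrophage markers summed to 106 to 136 CPM in AKG libraries and to 161 to 245 CPM in Control libraries, with 0 higher and 8 lower. With total counts as the scaling, 14 endothelial markers were higher and 1 lower. The counts became 4 higher and 4 lower for pericyte and smooth muscle markers, and 1 higher and 4 lower for macrophage markers. These stand beside 25% higher and 25.2% lower over all tested genes, and 56.7% and 9.12% with total counts. None of these markers was at 0 in every library. Their part in the collagen values was not tested, and in bulk RNA fewer cells of a type and less RNA per cell cannot be told apart.

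Collagen transcripts took 0.757, 0.643 and 0.734% of all counts in the AKG libraries, against 0.559, 0.629 and 0.517% in the Control libraries. Every AKG library lay above every Control library in this share of raw totals, which also hold the mitochondrial counts that were fewer in AKG libraries. Of the TMM-scaled totals, collagens made up 0.652, 0.576 and 0.602% in AKG libraries, against 0.672, 0.695 and 0.618% in Control libraries, and the groups overlapped. Under edgeR's quasi-likelihood test with Benjamini-Hochberg adjustment over all tested genes, 14 collagen genes were higher in AKG, 10 were lower and 12 did not pass, while 8 had too few counts to be tested. Over all tested genes 25% were higher and 25.2% lower, 50.2% in all. The median log2 fold change was -0.06 over the 36 tested collagen genes and 0.00 over all tested genes. The AKG libraries lay all above the Control libraries for 12 of the 36 and all below for 10, against 29.4% above and 29.9% below over all tested genes, 59.2% in all. Among the 24 collagen genes past the test, 14 changed by at least 2-fold, 9 of them higher and 5 lower. Col11a1 and Col25a1, among these 9, passed the filter on low counts only by their AKG libraries. The share of 2-fold changes over all tested genes was not computed, so the 14 cannot be set against the bulk. With total counts as the scaling, 19 collagen genes were higher and 6 lower, where 56.7% of all tested genes were higher and 9.12% lower. AKG 2 alone gave 10 higher and 10 lower, where 20.1% of all tested genes were higher and 20.7% lower.

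**Figure D1:**
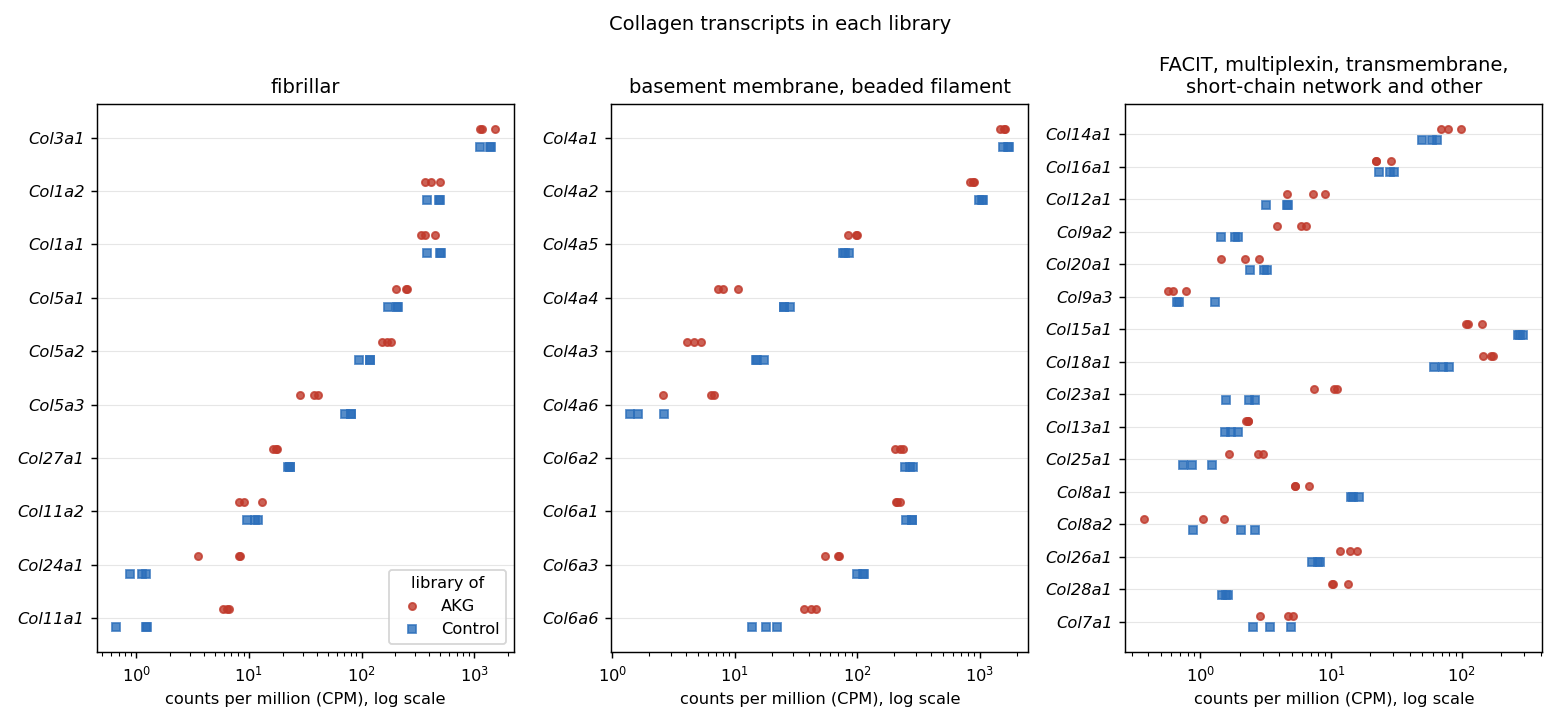
Transcript level of the 36 tested collagen genes in each library, in CPM (TMM scaling) on a log axis; red circles are the 3 AKG libraries and blue squares the 3 Control libraries. For the abundant Col3a1, Col1a1 and Col1a2 the 2 groups overlap, whereas for Col15a1, Col4a3 and Col4a4 all AKG libraries lie below, and for Col18a1, Col28a1 and Col11a1 all lie above, the Control libraries.

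The fibrillar collagens comprised the most abundant chain and some of the rarest. Col3a1, the only chain of the type III homotrimer, had the highest level of all collagens per length, 359 ± 73.5 FPKM in AKG libraries and 273 ± 44.7 FPKM in Control libraries (length-scaled fragment counts made by the authors, SD, n = 3 each). On the CPM scale Col3a1 had 1537, 1120 and 1165 in AKG libraries, against 1422, 1375 and 1117 in Control libraries. The groups overlapped, and the log2 fold change was -0.03 (SE 0.132, adjusted p = 0.847, edgeR's quasi-likelihood test with Benjamini-Hochberg adjustment, as for each adjusted p below). With total counts as the scaling the Col3a1 value was 0.41 and passed (adjusted p = 0.0217). On the FPKM scale its groups did not overlap. Col3a1 had 443, 317 and 316 FPKM in AKG libraries, against 295, 302 and 221 FPKM in Control libraries.

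Type I collagen, the main load-bearing fibril of the heart, is built from Col1a1 and Col1a2. Col1a1 had 454, 335 and 365 CPM in AKG libraries, against 511, 493 and 379 CPM in Control libraries. Col1a2 had 500, 367 and 415 CPM in AKG libraries, against 489, 495 and 384 CPM in Control libraries. For both chains the groups overlapped, and neither passed the test, with log2 fold changes of -0.26 (SE 0.136, adjusted p = 0.136) for Col1a1 and -0.09 (SE 0.128, adjusted p = 0.572) for Col1a2. Col1a1 passed without AKG 1 (-0.39, adjusted p = 0.0181) and without Control 3 (-0.39, adjusted p = 0.0253). Both type I chains had log2 fold changes above 0 with total counts as the scaling, without passing.

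Type V collagen is built into the core of type I fibrils and limits their width, and of its 3 chains 1 was higher, 1 lower and 1 not past the test. Col5a2 rose, with 183, 151 and 169 CPM in AKG libraries, against 120, 119 and 95.0 CPM in Control libraries. The lowest AKG library lay well above the highest Control library, at a log2 fold change of 0.59 (SE 0.101, adjusted p = 0.000327). Col5a3, a chain of rarer type V heterotrimers, fell to 28.3, 40.7 and 38.2 CPM in AKG libraries, against 71.6, 80.7 and 80.8 CPM in Control libraries. Its log2 fold change was -1.12 (SE 0.121, adjusted p = 2.13e-05), a level 2.17-fold lower in AKG with no overlap. Col5a1 had 254, 204 and 247 CPM in AKG libraries, against 211, 208 and 170 CPM in Control libraries, with AKG 2 inside the Control range. It missed the threshold at 0.26 (SE 0.104, adjusted p = 0.0535) and passed without AKG 2 (0.36, adjusted p = 0.0117). It also passed with DESeq2 (0.26, adjusted p = 0.0373), without a count filter (0.27, adjusted p = 0.0332) and under total-count scaling (0.70, adjusted p = 0.000229).

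Of 10 fibrillar chains tested, 3 were higher, 2 lower and 5 not past the test, and the rarer ones complete the class. Col11a1, a chain that nucleates thin fibrils and is best known from cartilage, had 6.69, 5.90 and 6.38 CPM in AKG libraries, against 1.23, 1.24 and 0.663 CPM in Control libraries. It was 5.97-fold higher in AKG (log2 fold change 2.58, SE 0.251, adjusted p = 2.45e-06). Col24a1, a chain of a less common fibrillar collagen, had 8.32, 3.54 and 8.21 CPM in AKG libraries, against 1.23, 1.12 and 0.883 CPM in Control libraries. It was 6.18-fold higher (2.63, SE 0.349, adjusted p = 7.45e-05), with AKG 2 much the lowest of the AKG libraries yet above every Control library. On the FPKM scale the groups of Col24a1 overlapped, because the FPKM and count of Control 1 implied a transcript length of 1.03 kb where the other 5 libraries implied 7.12 to 7.17 kb. Col11a1 passed the filter on low counts by its AKG libraries, so that its count of calls is no support for the class.

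Col27a1, a fibrillar chain of cartilage and other tissues, had 17.8, 16.5 and 17.4 CPM in AKG libraries, against 23.1, 22.1 and 23.1 CPM in Control libraries. Its groups were tight and did not overlap (-0.40, SE 0.0942, adjusted p = 0.00291), but with total counts as the scaling the value turned to 0.04. Col11a2, the partner of Col11a1 in type XI and mixed type V/XI molecules, did not pass. It had 8.15, 13.0 and 9.10 CPM in AKG libraries, against 9.60, 11.4 and 12 CPM in Control libraries, with overlapping groups (-0.12, SE 0.173, adjusted p = 0.575). Col2a1, the main cartilage collagen, was at or under the floor with 2, 3 and 2 counts in AKG libraries and 0, 0 and 1 counts in Control libraries.

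**Figure D2:**
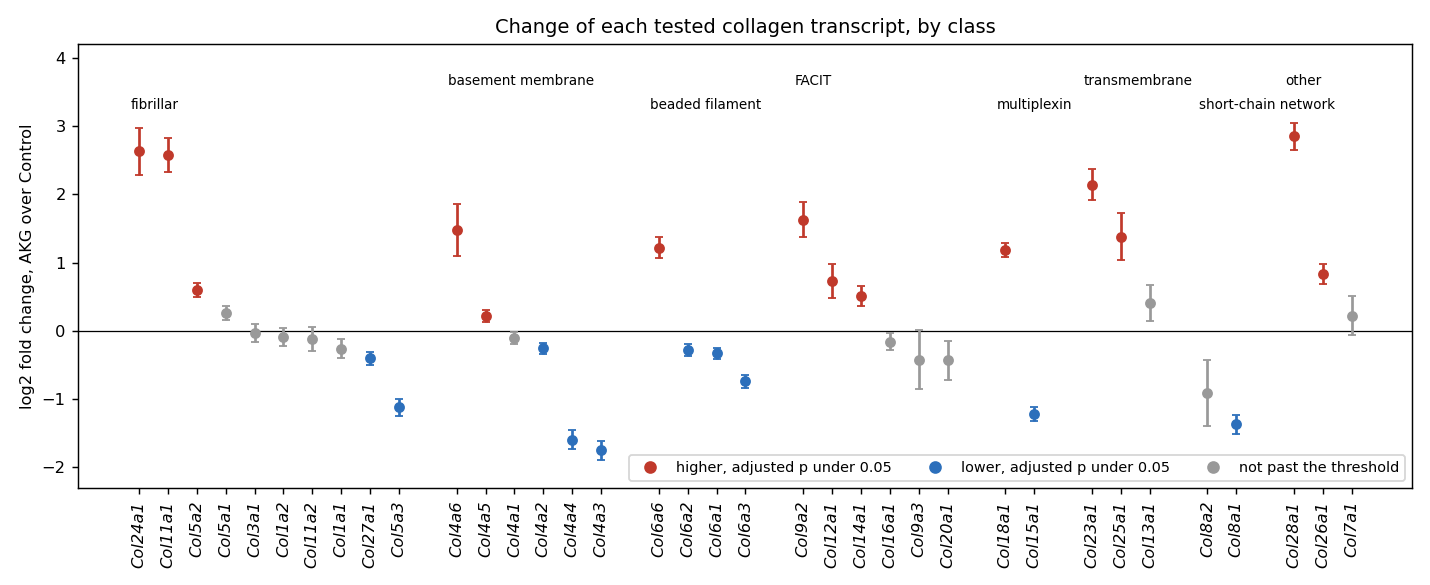
Log2 fold change (AKG over Control, TMM scaling) of the 36 tested collagen genes, grouped by class; error bars are the SE worked back from edgeR's test, red is higher, blue lower and grey not past an adjusted p of 0.05. Each class other than the FACIT, transmembrane, short-chain network and other chains holds both higher and lower genes; with total counts as the scaling Col4a2, Col6a1, Col6a2 and Col27a1 lie above 0.

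Of the 6 basement membrane chains 2 were higher, 3 lower and 1 not past the test. Type IV collagen is made as 3 trimers: 1 of Col4a1 and Col4a2, found in all basement membranes, 1 of Col4a3, Col4a4 and Col4a5, known from kidney, lung and other specialised membranes, and 1 of Col4a5 and Col4a6, known from smooth muscle and epithelial membranes. The genes lie in head-to-head pairs. In the RefSeq table of promoter windows (GRCm38.p6, 300 bases around each start), the windows of Col4a1 and Col4a2 overlap by 78 bases, and the starts of Col4a6 and Col4a5 are 1343 bases apart.

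The windows of Col4a1 and Col4a2 are shown because both genes read out from the same stretch, and that of Col4a4 for the gene of the class with a large fall whose window the table holds. Capitals mark a CCAAT box (CCAAT) or a GC box (GGGCGG) on either strand, which means that ATTGG and CCGCCC are marked too. The 3 windows are chr8:11312777-11313076 on the minus strand, chr8:11312555-11312854 on the plus strand and chr1:82586800-82587099 on the minus strand of GRCm38.p6.
Col4a1: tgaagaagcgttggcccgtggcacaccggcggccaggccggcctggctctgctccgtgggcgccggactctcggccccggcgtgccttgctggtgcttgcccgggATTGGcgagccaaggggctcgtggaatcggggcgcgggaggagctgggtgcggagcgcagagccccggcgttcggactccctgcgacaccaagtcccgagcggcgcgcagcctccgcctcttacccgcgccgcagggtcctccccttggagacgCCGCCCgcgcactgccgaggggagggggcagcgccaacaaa
Col4a2: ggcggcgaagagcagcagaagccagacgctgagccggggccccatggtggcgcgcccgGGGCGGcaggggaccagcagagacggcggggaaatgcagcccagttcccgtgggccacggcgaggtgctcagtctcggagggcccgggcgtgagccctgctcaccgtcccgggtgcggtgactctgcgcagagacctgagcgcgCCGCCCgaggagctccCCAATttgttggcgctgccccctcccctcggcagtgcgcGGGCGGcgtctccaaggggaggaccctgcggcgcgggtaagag
Col4a4: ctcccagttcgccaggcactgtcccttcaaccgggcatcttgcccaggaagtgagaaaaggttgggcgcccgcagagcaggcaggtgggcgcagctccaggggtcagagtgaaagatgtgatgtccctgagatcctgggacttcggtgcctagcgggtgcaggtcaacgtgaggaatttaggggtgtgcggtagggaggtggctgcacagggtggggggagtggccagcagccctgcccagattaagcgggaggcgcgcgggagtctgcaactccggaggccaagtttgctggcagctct
The Col4a1 window held 1 CCAAT box and 1 GC box, the Col4a2 window 1 and 3, and the Col4a4 window none of either. G and C made up 74.0% of the Col4a1 window, 73.7% of the Col4a2 window and 63.3% of the Col4a4 window. Windows were matched for 35 of the 44 genes, 38 windows in all. A GC box was in 60.5% of these 38 and in 35.7% of all 32851 promoter windows of the table, a CCAAT box in 34.2% against 37.4%, and a TATA box (TATAAA, either strand) in 13.2% against 13.6%. A match describes letters only.

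Col4a1 and Col4a2 were, after Col3a1, the most abundant collagens per length. Col4a1 had 1472, 1589 and 1601 CPM in AKG libraries, against 1560, 1746 and 1694 CPM in Control libraries, with overlapping groups (-0.10, SE 0.0892, adjusted p = 0.368). Col4a2 had 841, 874 and 891 CPM in AKG libraries, against 993, 1070 and 1046 CPM in Control libraries. The AKG libraries lay just below the Control libraries and Col4a2 passed the test at -0.25 (SE 0.0818, adjusted p = 0.0188), a level 1.19-fold lower. On the FPKM scale, by contrast, all AKG libraries lay above all Control libraries for both genes. Col4a2 had 151, 151 and 168 FPKM in AKG libraries, against 128, 150 and 136 FPKM in Control libraries. With total counts as the scaling both turned, to 0.34 for Col4a1 (adjusted p = 0.00663) and 0.19 for Col4a2 (adjusted p = 0.0909). The Col4a2 call was also lost without AKG 1 (adjusted p = 0.0511), without Control 2 (adjusted p = 0.0891), without Control 3 (adjusted p = 0.059) and with AKG 2 alone (adjusted p = 0.0649).

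Col4a3 and Col4a4 fell by far more. Col4a3 had 4.05, 4.66 and 5.33 CPM in AKG libraries, against 17.2, 15 and 15.2 CPM in Control libraries. This was 3.37-fold lower in AKG (-1.75, SE 0.144, adjusted p = 5.55e-07), the deepest fall of any tested collagen. Col4a4 had 7.25, 8.08 and 10.6 CPM in AKG libraries, against 25.3, 28.0 and 25.0 CPM in Control libraries. It was 3.02-fold lower (-1.59, SE 0.135, adjusted p = 6.98e-07), and for both genes the highest AKG library was well under the lowest Control library. Both stayed past the threshold in the same direction under each of the 19 alternatives. Per length these are minor chains: Col4a3 averaged 0.659 ± 0.14 FPKM in AKG libraries and 1.58 ± 0.096 FPKM in Control libraries, beside 297 ± 29.3 and 234 ± 28.5 FPKM for Col4a1 (SD, n = 3 each).

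Col4a5 and Col4a6 did not share that fall. Col4a5 had 97.1, 84.3 and 99.8 CPM in AKG libraries, against 79.2, 85.9 and 76.8 CPM in Control libraries. It passed narrowly at 0.22 (SE 0.0822, adjusted p = 0.0412) with AKG 2 inside the Control range. The Col4a5 call was lost without AKG 1 (adjusted p = 0.0853), without AKG 3 (0.0858), without Control 1 (0.123) and without Control 3 (0.157), and with AKG 2 alone the value was 0.07. Col4a6 had 6.80, 2.61 and 6.38 CPM in AKG libraries, against 2.65, 1.61 and 1.40 CPM in Control libraries. AKG 1 and AKG 3, the libraries with atrial transcripts, were high, and AKG 2 lay just under Control 1. The pooled value was 1.48 (SE 0.380, adjusted p = 0.00851), and with AKG 2 alone it was 0.47 (adjusted p = 0.407). The part of atrial cells in the Col4a6 value was not tested.

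The beaded filament class counted 1 higher and 3 lower of 4 tested. Type VI collagen joins Col6a1 and Col6a2 to a further chain, usually Col6a3, and anchors basement membranes to the surrounding matrix. Col6a1 had 222, 209 and 211 CPM in AKG libraries, against 278, 281 and 249 CPM in Control libraries (-0.33, SE 0.0785, adjusted p = 0.00308). Col6a2 had 236, 202 and 223 CPM in AKG libraries, against 286, 271 and 246 CPM in Control libraries (-0.28, SE 0.0870, adjusted p = 0.016). Neither gene had overlapping groups, but with total counts as the scaling Col6a1 turned to 0.11 and Col6a2 to 0.17, both without passing. The Col6a2 call was lost without AKG 2 (adjusted p = 0.0752), without Control 1 (0.0845) and without Control 2 (0.0598).

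Col6a3 fell further than its partners, to 70.7, 54.7 and 69.4 CPM in AKG libraries, against 113, 112 and 100.3 CPM in Control libraries. It was 1.67-fold lower (-0.74, SE 0.0974, adjusted p = 3.87e-05) with no overlap, while on the FPKM scale, 8.41 ± 1.43 in AKG libraries and 10.5 ± 1.07 in Control libraries, its groups overlapped. Col6a6, a chain that can take the place of Col6a3 in the trimer, rose. It had 46.1, 37.0 and 42.2 CPM in AKG libraries, against 22.0, 18.0 and 13.8 CPM in Control libraries, which was 2.33-fold higher with no overlap (1.22, SE 0.151, adjusted p = 7.69e-05). Of the remaining alternatives to Col6a3, Col6a4 had 5, 0 and 0 counts in AKG libraries and 0 in each Control library. Col6a5 had 0 counts in each AKG library, against 0, 2 and 1 in Control libraries.

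The FACIT class counted 3 higher and 0 lower of 6 tested. Col14a1, which binds fibrils of type I collagen during heart and tendon growth, had 99.3, 69.5 and 78.2 CPM in AKG libraries, against 59.4, 64.4 and 49.8 CPM in Control libraries. AKG 2 and Control 2 were close, and the groups did not overlap (0.51, SE 0.141, adjusted p = 0.015). The Col14a1 call was lost without AKG 3 (0.55, adjusted p = 0.0704) and with AKG 2 alone (0.27, adjusted p = 0.0834). Col12a1, a large FACIT chain of dense connective tissue, had 8.94, 4.60 and 7.21 CPM in AKG libraries, against 4.63, 4.66 and 3.17 CPM in Control libraries. It passed at 0.73 (SE 0.246, adjusted p = 0.025) with AKG 2 inside the Control range, and was lost without AKG 1 (0.52, adjusted p = 0.102), without AKG 3 (0.71, adjusted p = 0.0554), without Control 3 (0.58, adjusted p = 0.1) and with AKG 2 alone (0.15, adjusted p = 0.731). Col9a2, a chain of the cartilage type IX collagen, was 3.09-fold higher, with 6.41, 5.84 and 3.88 CPM in AKG libraries, against 1.43, 1.93 and 1.84 CPM in Control libraries. Its groups did not overlap (1.63, SE 0.255, adjusted p = 0.000142).

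The other FACIT chains did not pass. Col16a1 had 28.9, 22.2 and 21.9 CPM in AKG libraries, against 30.3, 28.1 and 23.0 CPM in Control libraries, with overlapping groups (-0.16, SE 0.130, adjusted p = 0.335). Col20a1 had 2.19, 2.80 and 1.44 CPM in AKG libraries, against 2.38, 3.04 and 3.24 CPM in Control libraries (-0.43, adjusted p = 0.221). Col9a3, a partner of Col9a2 in type IX collagen, had 0.562, 0.621 and 0.777 CPM in AKG libraries, against 1.29, 0.683 and 0.663 CPM in Control libraries, passed the filter by its AKG libraries and gave -0.42 (SE 0.435, adjusted p = 0.443). Col9a1, the remaining type IX chain, had 8, 3 and 12 counts in AKG libraries, against 4, 2 and 0 counts in Control libraries, and was not tested. Col22a1 had 2, 4 and 2 counts in AKG libraries, against 4, 5 and 10 in Control libraries, and Col19a1 had at most 2 counts in any library.

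The multiplexins, basement membrane collagens whose C-terminal ends can be released as restin and endostatin, moved in opposite directions. Col15a1, a chain that links basement membranes to fibrils and is known from heart muscle and capillaries, had 143, 111 and 108 CPM in AKG libraries, against 278, 296 and 271 CPM in Control libraries. The fall was 2.34-fold (-1.22, SE 0.104, adjusted p = 8.77e-07). Col18a1, the source of endostatin, had 173, 166 and 144 CPM in AKG libraries, against 71.6, 79.6 and 61.1 CPM in Control libraries. It was 2.27-fold higher (1.19, SE 0.101, adjusted p = 1.13e-06). Neither gene's groups overlapped, and each kept its direction and its call under each of the 19 alternatives. By mean FPKM, Col15a1 ranked as the 10th collagen in AKG libraries and the 4th in Control libraries, and Col18a1 as the 9th in AKG libraries and the 13th in Control libraries. The transcript length implied by FPKM and counts of Col15a1 was 3.57, 3.61 and 4.38 kb in AKG libraries, against 2.79, 3.03 and 2.81 kb in Control libraries. All AKG libraries lay above, so FPKM and counts of this gene differ by more than a scaling.

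Among the transmembrane collagens 2 were higher and 0 lower of 3 tested. Col23a1 had 11, 7.39 and 10.4 CPM in AKG libraries, against 1.57, 2.61 and 2.36 CPM in Control libraries, 4.4-fold higher with no overlap (2.14, SE 0.227, adjusted p = 5.12e-06). Col25a1, a membrane-bound collagen first known from brain, had 3.04, 2.73 and 1.66 CPM in AKG libraries, against 1.23, 0.870 and 0.736 CPM in Control libraries (1.38, SE 0.343, adjusted p = 0.00426), and passed the filter on low counts by its AKG libraries. Col13a1, known from the neuromuscular junction, had 2.30, 2.24 and 2.33 CPM in AKG libraries, against 1.70, 1.93 and 1.55 CPM in Control libraries. Its groups did not overlap, but it did not pass (0.40, SE 0.261, adjusted p = 0.214). Col17a1, a hemidesmosome collagen of epithelia, was under the filter with 5, 8 and 7 counts in AKG libraries and 0, 0 and 0 counts in Control libraries.

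Of the short-chain network collagens, Col8a1, a chain of the subendothelial matrix, had 5.28, 6.77 and 5.33 CPM in AKG libraries, against 14.1, 14.6 and 16.2 CPM in Control libraries. It was 2.58-fold lower with no overlap (-1.37, SE 0.142, adjusted p = 4.17e-06). Its partner Col8a2 had 1.52, 0.373 and 1.05 CPM in AKG libraries, against 2.04, 2.61 and 0.883 CPM in Control libraries, with overlapping groups (-0.90, SE 0.483, adjusted p = 0.14). Col8a2 passed the filter on low counts by its Control libraries, and passed the test without Control 3 (-1.23, adjusted p = 0.0482) and with AKG 2 alone (-2.29, adjusted p = 0.0145). Col10a1, the collagen of hypertrophic cartilage, had at most 1 count in an AKG library and 4 in a Control library.

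The 3 chains outside these classes included the largest rise of any tested collagen. Col28a1, which in mouse is known from Schwann cell basement membranes of peripheral nerve, had 10.1, 13.4 and 10.3 CPM in AKG libraries, against 1.57, 1.61 and 1.47 CPM in Control libraries. It was 7.20-fold higher (2.85, SE 0.195, adjusted p = 1.13e-07), with both groups tight. The 10 Schwann cell markers summed to 32.5 to 34.1 CPM in AKG libraries and to 34.5 to 37.2 CPM in Control libraries, with 1 higher and 2 lower of 8 tested. Col26a1 had 15.9, 13.9 and 11.7 CPM in AKG libraries, against 7.89, 8.20 and 7.14 CPM in Control libraries, again with no overlap (0.83, SE 0.143, adjusted p = 0.000306). Col7a1, the anchoring fibril collagen of skin, had 2.87, 4.66 and 5.10 CPM in AKG libraries, against 3.40, 2.55 and 4.93 CPM in Control libraries, with overlapping groups (0.22, SE 0.279, adjusted p = 0.53).

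The size of the change is given here by level, without a test. The same values by level over all tested genes were not computed, so a pattern particular to collagens cannot be read from them. Ranked by mean FPKM, the highest 12 of the 36 tested genes had a median absolute log2 fold change of 0.27, the middle 12 of 0.97 and the lowest 12 of 1.14. In the highest 12, which ran from Col3a1 down to Col14a1, 3 were higher, 4 lower and 5 did not pass. In the middle 12, 5 were higher, 5 lower and 2 did not pass. In the lowest 12, 6 were higher, 1 was lower and 5 did not pass, and of those 6, Col11a1 and Col25a1 had passed the filter on low counts only by the AKG libraries in which they were high. Rare genes carry more counting error, and their fold changes are less precise.

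As a share of summed collagen FPKM, which is free of the scaling between libraries, the 2 most abundant classes overlapped between the groups. Fibrillar chains made up 45.5 ± 3.95% in AKG libraries and 42.7 ± 3.42% in Control libraries (SD, n = 3 each), and basement membrane chains 35.0 ± 4.19% in AKG libraries and 34.9 ± 3.31% in Control libraries. Beaded filament chains made up 10.1 ± 0.433% in AKG libraries and 11.2 ± 0.27% in Control libraries, with all AKG libraries below. Multiplexins made up 5.59 ± 0.582% in AKG libraries and 8.55 ± 0.354% in Control libraries, also with all AKG libraries below. The implied transcript length of Col15a1 averaged 3.85 kb in AKG libraries and 2.88 kb in Control libraries. For the same count its FPKM is therefore lower in AKG libraries, which widens the gap in the multiplexin share. FACIT chains made up 2.71 ± 0.284% in AKG libraries and 2.02 ± 0.033% in Control libraries, with all AKG libraries above. The shares of transmembrane chains, 0.249 ± 0.0163% in AKG libraries and 0.0922 ± 0.0143% in Control libraries, lay apart in the same direction. Short-chain network chains made up 0.117 ± 0.0101% in AKG libraries and 0.259 ± 0.0187% in Control libraries, and the other chains 0.692 ± 0.0713% in AKG libraries and 0.270 ± 0.0124% in Control libraries, neither with overlap.

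**Figure D3:**
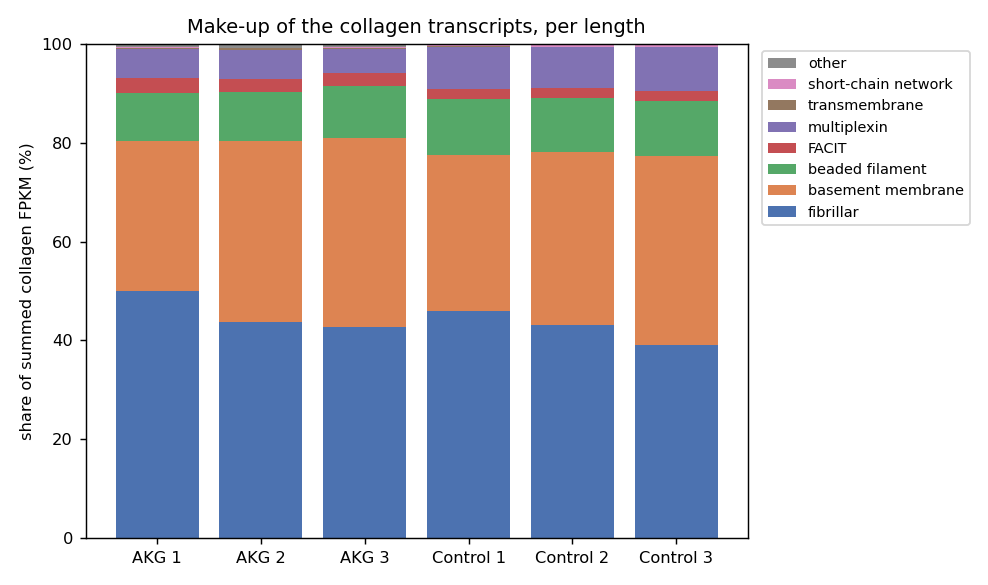
Make-up of the collagen transcripts in each library, as the share of summed collagen FPKM (%) by class; the 3 AKG libraries stand left of the 3 Control libraries. Fibrillar and basement membrane chains make up most of every bar with overlapping shares, and the multiplexin share is smaller in every AKG library (4.92 to 5.97%) than in every Control library (8.26 to 8.94%). The longer implied transcript length of Col15a1 in AKG libraries widens the multiplexin gap.

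Ratios between chains of the same or of related collagens do not depend on the scaling between libraries either. Of 10 pairs, 8 had ratios whose groups did not overlap, each with an exact two-sided permutation p of 0.1. This is the smallest that 3 libraries against 3 can give and cannot pass 0.05 (Benjamini-Hochberg adjusted over the 10 pairs, 0.125). Taken singly, 59.2% of all tested genes did not overlap between the groups, and the share over other gene pairs was not computed. Col4a1, Col4a3, Col1a1 and Col6a1 each stand in more than 1 pair, so the pairs are not independent. The widest gap was Col15a1 to Col18a1, with ratios of CPM of 0.828, 0.668 and 0.748 in AKG libraries, against 3.89, 3.72 and 4.43 in Control libraries. The log2 difference was -2.43. Per length, as ratios of FPKM, this pair had 1.12, 0.850 and 0.795 in AKG libraries, against 7.05, 5.997 and 7.99 in Control libraries. The ratio of Col4a3 to Col4a1 was 0.00275, 0.00293 and 0.00333 in AKG libraries, against 0.0110, 0.00857 and 0.00895 in Control libraries, a log2 difference of -1.66. Col6a3 to Col6a1 had 0.319, 0.262 and 0.328 in AKG libraries, against 0.408, 0.399 and 0.402 in Control libraries. Col4a5 to Col4a1 had 0.0660, 0.0530 and 0.0623 in AKG libraries, against 0.0508, 0.0492 and 0.0453 in Control libraries.

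Ratios among the major fibrillar chains did not overlap between the groups either. The ratio of Col1a1 to Col1a2 was 0.907, 0.915 and 0.879 in AKG libraries, against 1.04, 0.997 and 0.989 in Control libraries. Col3a1 to Col1a1 was 3.39, 3.34 and 3.19 in AKG libraries, against 2.78, 2.79 and 2.94 in Control libraries. Col5a1 to Col5a2 was 1.39, 1.35 and 1.46 in AKG libraries, against 1.76, 1.75 and 1.79 in Control libraries. For the first and the last of these the AKG ratios were all lower, and for Col3a1 to Col1a1 all higher. Col4a1 to Col4a2, the pair whose promoter windows overlap, was 1.75, 1.82 and 1.80 in AKG libraries, against 1.57, 1.63 and 1.62 in Control libraries. The ratios of Col6a1 to Col6a2 and of Col4a3 to Col4a4 overlapped between groups (exact permutation p = 0.3 each). With FPKM in place of CPM, 7 of the 10 pairs did not overlap, since Col4a5 to Col4a1 did.

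**Figure D4:**
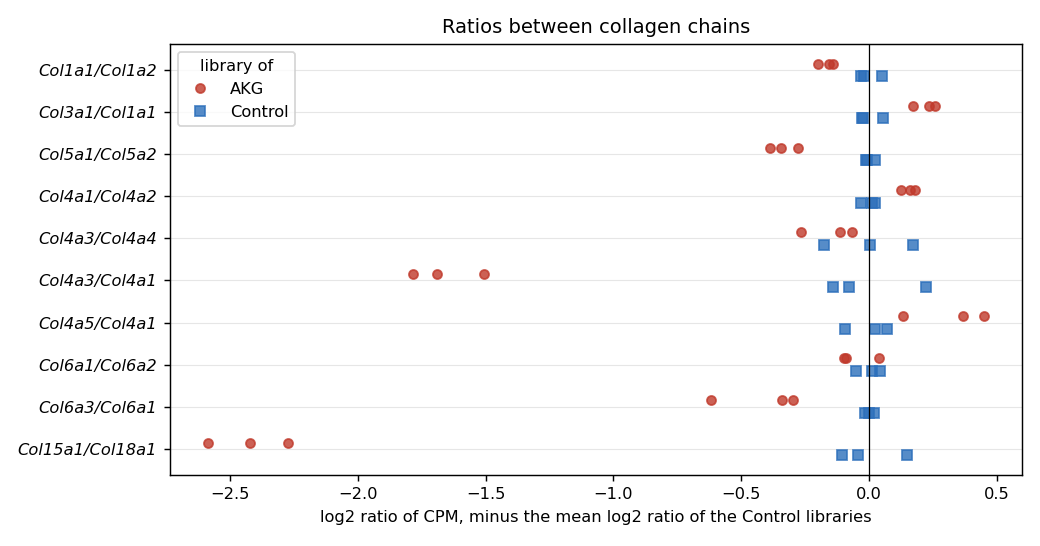
Log2 ratio of CPM of 10 pairs of collagen chains in each library, minus the mean log2 ratio of the Control libraries; red circles are AKG libraries and blue squares Control libraries. Col15a1/Col18a1 and Col4a3/Col4a1 lie farthest to the left, and Col4a3/Col4a4 and Col6a1/Col6a2 are the pairs whose groups overlap.

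Many collagen transcripts carry matches to the seed of the miR-29 family, microRNAs known in mouse heart to lower collagen transcripts. The levels of these microRNAs were not measured here. Their mature sequences (RefSeq, GRCm38.p6) are shown because the 3 members share 1 seed, bases 2 to 8, in capitals.
mmu-miR-29a-3p: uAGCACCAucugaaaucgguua
mmu-miR-29b-3p: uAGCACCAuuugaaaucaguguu
mmu-miR-29c-3p: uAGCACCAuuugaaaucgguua
A 7-base match to the seed, TGGTGCT on the transcript strand, was looked for after the stop codon of 1 GENCODE M21 transcript per gene. It was in 24 of 44 collagen genes (54.5%) and in 2481 of 20962 protein-coding genes (11.8%), with a median length after the stop codon of 920 bases in collagen genes and 804 bases in all. By class it was in 9 of 11 fibrillar, 6 of 6 basement membrane, 2 of 6 beaded filament and 3 of 9 FACIT genes. By call it was in 6 of the 14 genes higher in AKG, 9 of the 10 lower, 6 of the 12 not past the test and 3 of the 8 not tested.

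Windows around the match are shown for genes that fell (Col4a3, Col5a3, Col15a1), rose (Col11a1, Col24a1) and did not pass (Col3a1), with the match in capitals, because the same letters stand in all of them. The first match begins 1752 bases after the stop codon in Col4a3, 48 in Col5a3, 210 in Col15a1, 256 in Col11a1, 504 in Col24a1 and 235 in Col3a1.
Col4a3: aagtggacgtgaTGGTGCTgatact
Col5a3: acatgggctcctTGGTGCTgaggct
Col15a1: caatccacatatTGGTGCTagattc
Col11a1: tttggatttcgtTGGTGCTgtagaa
Col24a1: tttggtgttgctTGGTGCTgtctcc
Col3a1: aaaatgtctcaaTGGTGCTataata
Col11a1 and Col24a1, each about 6-fold higher in AKG, carried the match as did Col4a3 and Col5a3, which were lower. Col18a1 and Col28a1, which rose, and Col6a1, which fell, had none in the transcripts searched. A match describes the letters and is not a measured target site.

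**Figure D5:**
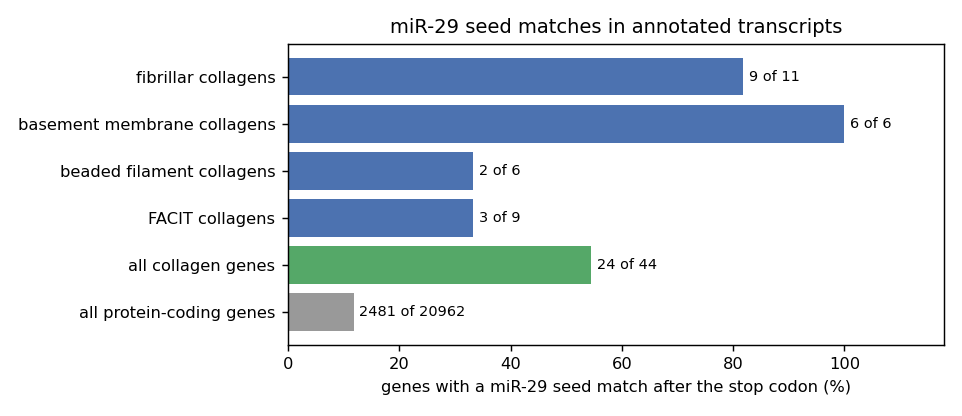
Share of genes (%) with at least 1 match to the miR-29 seed after the stop codon, for 4 collagen classes, all collagen genes and all protein-coding genes of GENCODE M21; numbers beside the bars are genes with a match of all genes. The match is in 24 of 44 collagen genes and in 2481 of 20962 protein-coding genes.

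Genes that fold and modify collagen chains in the endoplasmic reticulum counted 4 higher and 8 lower of 23 tested, and 12 higher and 3 lower with total counts as the scaling. The counts of this and the following lists stand beside 25% higher and 25.2% lower over all tested genes, and 56.7% and 9.12% with total counts. P4ha2, an α-ketoglutarate-dependent prolyl 4-hydroxylase subunit, had 10.01, 11.3 and 13.3 CPM in AKG libraries, against 28.0, 29.5 and 30.9 CPM in Control libraries (log2 fold change -1.35, adjusted p = 7.51e-07). P4ha1, the main catalytic subunit of the same enzyme, had 21.6, 20.3 and 22.0 CPM in AKG libraries, against 40.6, 40.9 and 38.6 CPM in Control libraries (-0.91, adjusted p = 1.73e-06). Serpinh1, the collagen chaperone HSP47, was lower at -0.62 and Plod1, a lysyl hydroxylase, at -0.49, and with total counts as the scaling these came to -0.18 and -0.05 without passing. For none of these 4 genes did the groups overlap. P4ha3, another catalytic subunit of the same enzyme, was higher at 1.92. P4ha3 had 48, 31 and 29 counts in AKG libraries, against 8, 7 and 9 counts in Control libraries. It passed the filter on low counts by its AKG libraries.

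Of 11 tested genes that cut propeptides or crosslink fibrils, 1 was higher and 4 were lower, and 6 were higher and 2 lower with total counts as the scaling. Pcolce, an enhancer of procollagen C-proteinase that is also in the fibroblast marker list, fell at -0.81, while Lox, the crosslinking lysyl oxidase, rose at 0.64. Of 14 proteoglycans and matrix partners 5 were higher and 6 lower, with Thbs2 at 1.16, Prelp at -0.62 and Dcn (decorin) at -0.52, and with total counts as the scaling 6 were higher and 0 lower. Fn1, fibronectin, which binds collagen, had 466, 364 and 423 CPM in AKG libraries, against 214, 222 and 191 CPM in Control libraries (adjusted p = 3.13e-06). Of 13 basement membrane partners 8 were higher and 2 lower, and 10 were higher and 1 lower with total counts as the scaling. The lower ones were Lamb2, a laminin chain, at -0.68 and Hspg2 (perlecan) at -0.40, which turned to 0.05 with total counts, and Lamb1 was among the higher at 0.57.

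Of 14 tested genes of collagen breakdown and its inhibition 7 were higher and 0 lower (25% and 25.2% over all tested genes). With total counts as the scaling 13 were higher and 0 lower (56.7% and 9.12% over all), and with AKG 2 alone 6 and 0 (20.1% and 20.7% over all). Mmp14, a membrane-bound collagenase, had 137, 106 and 111 CPM in AKG libraries, against 59.5, 56.3 and 45.3 CPM in Control libraries (1.13, adjusted p = 2.65e-05). Mmp11 at 0.69, Mmp2, a gelatinase, at 0.41 and Timp1, an inhibitor of these enzymes, at 0.78 were higher as well. Another inhibitor, Timp3, was also among the higher genes at 1.13, so the count mixes enzymes with their inhibitors. Mmp9, also higher, had 14, 19 and 16 counts in AKG libraries, against 5, 5 and 1 counts in Control libraries. It passed the filter on low counts by its AKG libraries. Of 11 collagen receptors 3 were higher and 3 lower: Adgrg6 at 1.93, Itga2 at 1.39 and Ddr1 at 0.61 were higher, and Itga1 at -0.35, Ddr2 at -0.47 and Itga11 at -1.72 lower. Itga11 had 12, 9 and 7 counts in AKG libraries, against 21, 36 and 23 counts in Control libraries. It passed the filter on low counts by its Control libraries. With total counts as the scaling 5 receptors were higher and 1 lower, and Itga1 turned to 0.09. Several of these genes stand in more than 1 list, so that the counts are not independent.

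In the authors' deposited table, the log2 ratios of Col4a2, Col6a1, Col6a2 and Col27a1 were 0.19, 0.11, 0.17 and 0.11, above 0. The values from TMM-scaled counts given here were below 0. With total counts as the scaling, the same counts gave values above 0 for all 4 genes. The authors' deposited false discovery rates of these 4 genes were 0.00159, 0.000258, 0.00896 and 0.0101. The log2 ratios are of mean FPKM, and what values the false discovery rates were computed from is not given. The rates therefore cannot be read as a test of these ratios. For Col3a1 and Col4a1 the authors' deposited log2 ratios were 0.39 and 0.34, with false discovery rates of 0.902 and 0.372. For Col15a1 the authors' deposited table gave a log2 ratio of -1.18 and for Col18a1 of 1.71.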

How the data were processed

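RNA of 6 libraries (3 AKG, 3 Control) was measured by mRNA sequencing. The authors deposited estimated counts and FPKM values of 22063 genes in every library. The log2 ratio, p-value and false discovery rate in it are also the authors' deposited values, the log2 ratio being that of mean FPKM. HISAT2 2.1.0, DESeq2 1.20.0 and RSEM 1.2.19 are listed in the submitters' processing notes, whereas what each was used for, and the build and annotation, are not given in the sources used here. Deposited counts were already whole, and for 52 counts of 0 the FPKM was above 0. Strand use in counting was not given either, so reads of overlapping antisense genes cannot be told apart. Because FPKM is scaled to each library's total, a fall of very abundant transcripts raises all others.

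Counts were tested in R 4.3.3 with edgeR 4.0.16 (filterByExpr, minimum count 10 and total 15; TMM; robust quasi-likelihood test; Benjamini-Hochberg over all 13117 tested genes, threshold 0.05). SE is the absolute log2 fold change over the square root of F. Chain ratios were tested with an exact permutation test (two-sided). The fit was tested on simulated data in which few genes changed, as many up as down. That simulation could not test the TMM scaling where many genes change, as they do here. Alternatives were other scalings, filters, DESeq2 1.42.0, limma-voom and limma on log2 FPKM with pseudocounts 1 and 0.1 (limma 3.58.1), a replicate block and leaving out libraries. All collagen genes past the filter were named, and of other lists up to 4 genes by smallest p. P4ha3, Ddr2, Itga11, Pdgfra, Tcf21, Timp3 and Mmp9 are exceptions, added after their values were seen. The members, classes and lists were chosen with earlier results of these data known. Rows without a gene symbol (30) held 3.95e-05% of counts. Promoter windows and microRNAs came from RefSeq (GRCm38.p6), and transcripts for seed matches from GENCODE M21. No 2 libraries held identical values. Levels of rare chains are limited by counting error at this depth.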

Additional observations from a re-analysis of the deposited data

How the results depend on the processing

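Scaling by total counts left 7431 genes higher and 1196 lower over the whole table. Limma on log2(FPKM + 1) gave 6722 and 1075, and on log2(FPKM + 0.1) 6709 and 1070. Under these 3 alternatives the collagen genes lower in AKG numbered 6, 5 and 5, the lower fibrillar genes 1, 1 and 1, and the lower beaded filament genes 1, 0 and 0; total counts gave 5 higher fibrillar genes. Reversed values under total counts, FPKM + 1 and FPKM + 0.1 were 0.34, 0.34 and 0.35 for Col4a1, 0.19, 0.19 and 0.19 for Col4a2, 0.17, 0.16 and 0.16 for Col6a2, 0.11, 0.11 and 0.11 for Col6a1, and 0.043, 0.084 and 0.11 for Col27a1. Col3a1 turned to 0.41 and passed with total counts. Its FPKM values were also all higher in AKG libraries than in Control libraries, but it passed in neither FPKM fit. These alternatives keep the shift of the bulk of genes. Higher basement membrane genes numbered 1 with upper quartile scaling, 1 with DESeq2, 1 with the replicate block and 0 with AKG 2 alone, and 1 to 2 without each library in turn. Higher FACIT genes numbered 1 with AKG 2 alone and 1 to 3 without each library. Leaving out each library gave 11 to 15 collagen genes higher and 8 to 11 lower. The replicate block gave 14 higher and 11 lower collagen genes. Col1a1 (adjusted p = 0.0429) and Col5a1 (0.0467) passed under it, and Col4a5 (0.0578) did not. Col5a1 passed with both FPKM fits as well (0.53 and 0.54). Libraries of the same number deviated with correlations of 0.161, -0.0342 and 0.0489, so the numbers were not taken as pairs, and not every library correlated best with its own number. The cause of the other changes was not tested.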
